A study of Mus musculus with 18 samples.

Results

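The comparison set quadriceps muscle of dyW mice given TD139 against quadriceps of healthy mice given vehicle, to see which of the dyW changes are present under the drug. Its members are the 3 dyW TD139 and the 3 WT PBS libraries, 6 of the 18 in the series, chosen by genotype label and library name, with 1 library per mouse. The dyW mice are of the strain B6.129S1(Cg)-Lama2tm1Eeng/J, a laminin alpha 2 knockout used to model the congenital muscular dystrophy of LAMA2 deficiency, and the labels of the colony call the mutants hemizygotes. The WT mice are C57BL/6J. The drug TD139 inhibits galectin-3, and PBS was the vehicle by the library names; dose, route and duration are not in the labels. All 6 mice carry an age label of 3 weeks, while the protocol places the tissue collection at 5 weeks, so their age is not certain. The dyW TD139 mice were labelled male, female and male, and the WT PBS mice male, male and female. Genotype and drug change together between these groups, so the part of each cannot be told apart from this contrast alone. Values of 3 dyW PBS, 2 WT TD139 and 7 untreated libraries (4 dyW, 3 WT, age label 5 weeks) stand beside it where they help.

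The laminin alpha 2 chain is the main alpha chain of the laminin in the basement membrane around adult muscle fibres, where it links the matrix to dystroglycan and integrin receptors on the fibre. Without it fibres are poorly anchored, degenerate, regenerate incompletely and are followed by inflammation and fibrosis. Galectin-3 is a sugar-binding lectin made by macrophages and other cells at sites of injury, and the drug blocks its sugar-binding pocket, so the level of its transcript is not a readout of the inhibition.

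Each library held 35.2 to 42.6 M exon reads, 38.7 to 39.6 M in dyW TD139, of which 98.19% to 98.34% were unique; dyW PBS replicate 1 was shallower, at 15.8 M. Of the genes measured, 15331 passed the filter on low counts. WT PBS replicate 1 stood apart from the other WT PBS libraries: the 50 most abundant genes took 44.2% of its reads against 54.7% and 53.9%, a share near the 43.65% to 44.63% of the dyW TD139 libraries. Its slow-fibre and nerve genes were far higher. Myh7, the slow myosin heavy chain, was at 442 RPKM (reads scaled by exon length and by library depth) in it and at 0.0638 and 0.0207 in the other WT PBS libraries. Results are therefore given with and without it. Fast-fibre genes were abundant in all 6 libraries, with Ckm (muscle creatine kinase) at 4877 to 10050 RPKM and Actn3 (the fast-fibre actinin) at 1483 to 3209 RPKM. These levels show skeletal muscle and do not by themselves identify it as quadriceps.

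Under TD139 the dyW muscle still differed from vehicle-treated WT muscle, mostly upward. By edgeR's quasi-likelihood test with Benjamini-Hochberg adjusted p under 0.05, 312 genes were higher and 62 lower in dyW TD139, which is 2.44% of the genes tested (2.04% higher and 0.404% lower). List counts below are to be read beside these shares. A short list with no called member cannot be told apart from the genes at large. The higher genes were led by simple keratins, macrophage genes, a metallothionein and genes of immature fibres. Cartilage genes, Arrdc2 and Chac1 led the lower ones. Without WT PBS replicate 1 the counts were 661 higher (4.33% of 15256 tested) and 372 lower (2.44%), or 6.77% in all. In that fit, 336 of the 374 genes were called in the same direction again. Leaving out any other library lowered both counts. The tests gave 103 higher and 9 lower without dyW TD139 replicate 1, 114 and 16 without replicate 2, and 95 and 11 without replicate 3. They gave 91 and 17 without WT PBS replicate 2, and 76 and 20 without WT PBS replicate 3. DESeq2 called 598 higher and 262 lower. On log2(RPKM + 0.1) with limma, where the median over all genes was itself shifted by 0.23, there were 445 higher and 24 lower. Of the 68 called genes that the naming rule chose, 26 were called in the same direction under each of 14 alternatives, and these are said to have held. The highest adjusted p over the alternatives is given, as "highest", for the others printed with an SE. Genes given by fold change alone were followed only without WT PBS replicate 1. Genes named by the size of their change had to be without overlap between the groups. For them the lack of overlap adds no support.

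**Figure D1:**
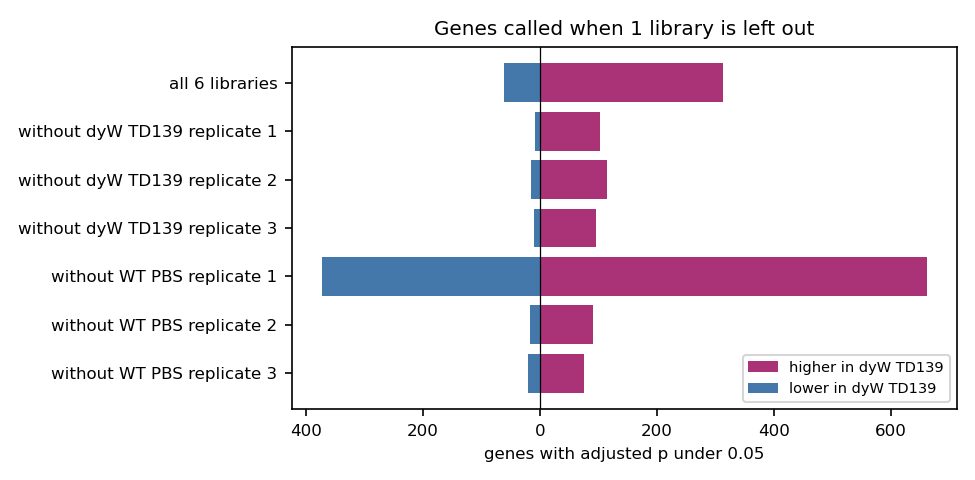
Number of genes with an edgeR adjusted p under 0.05 in dyW TD139 against WT PBS (horizontal axis, genes higher to the right and lower to the left), with all 6 libraries and with 1 library left out of the fit. The bars run from 76 higher and 20 lower without WT PBS replicate 3 to 661 higher and 372 lower without WT PBS replicate 1.

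Transcripts of the targeted gene Lama2 (mm10 chromosome 10, 26980036 to 27619758, ENSMUSG00000019899) were at 1.10, 1.07 and 0.651 RPKM in dyW TD139 and at 4.58, 3.19 and 3.49 RPKM in WT PBS. The groups did not overlap, and the log2 fold change was −2.23 (SE 0.26, adjusted p = 0.00275); the call held. Which exons carry the remaining reads cannot be read from gene totals. In dyW PBS, Lama2 was at 0.786, 0.656 and 0.704 RPKM, and in WT TD139 at 2.18 and 4.52 RPKM. Lama1, the alpha chain of embryonic basement membranes, had 8, 3 and 2 reads in the dyW TD139 libraries, 1 read in WT TD139 replicate 2 and 0 in each of the other cohort libraries, and was too low to be tested.

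Of 10 laminin chain genes tested, Lama4 was higher and Lama2 and Lamc3 were lower. Lama4, an alpha chain of vascular and immature fibre basement membranes, was at 8.42, 8.40 and 8.53 RPKM against 5.07, 2.59 and 2.40 (log2 fold change 1.13, SE 0.22, adjusted p = 0.0264, highest 0.11). Lamc3, a gamma chain, was at 0.0498, 0.109 and 0.0349 RPKM against 0.129, 0.327 and 0.434 (log2 fold change −2.48, SE 0.53, adjusted p = 0.0373, highest 0.148). Of 14 other basement membrane genes, 2 were lower and none higher. These were Col4a4 and Col4a3, collagen IV chains that are assembled together, with log2 fold changes of −1.38 (SE 0.20, adjusted p = 0.00654) and −1.29 (SE 0.26, adjusted p = 0.0291). The highest adjusted p was 0.101 for Col4a4 and 0.179 for Col4a3. None of 26 laminin receptor and dystrophin complex genes was called. Sgcd (delta-sarcoglycan) was at 2.15, 2.65 and 1.17 RPKM in dyW TD139 and at 1.07, 0.831 and 0.825 in WT PBS. Its log2 fold change was 0.90 (SE 0.33, adjusted p = 0.205), not past the threshold.

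The target of the drug stayed above the WT level. Galectin-3 is the product of Lgals3 (chromosome 14, 47367751 to 47386160, ENSMUSG00000050335), which was at 15, 12.3 and 15.8 RPKM in dyW TD139 and at 3.23, 2.00 and 1.31 RPKM in WT PBS. The lowest dyW TD139 library was above the highest WT PBS library (log2 fold change 2.50, SE 0.32, adjusted p = 0.00425), and the call held. In dyW PBS it was at 28.5, 9.90 and 12.3 RPKM, and the direct difference of dyW TD139 from dyW PBS was −0.15 on the log2 scale, with a 95% interval from −0.84 to 0.54. Lgals3bp, a secreted glycoprotein that binds galectin-3, was at 8.97, 10.6 and 13.1 RPKM against 5.05, 4.45 and 5.10 (log2 fold change 0.91, SE 0.18, adjusted p = 0.0288, highest 0.117). The other 10 of 12 galectins and partners tested were not called, and the list's median log2 fold change was 0.35, beside 0.0029 over all genes.

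**Figure D2:**
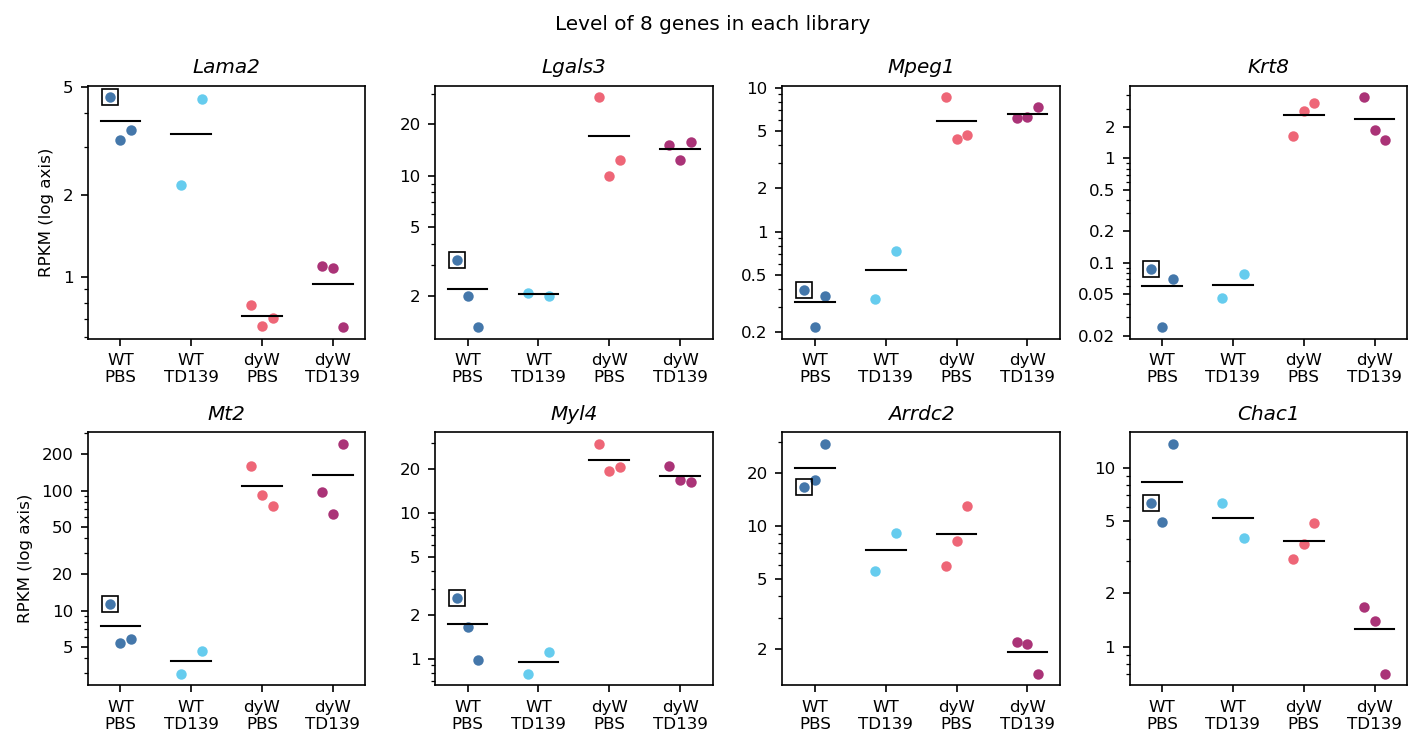
RPKM on a log axis of 8 genes in the 11 libraries given PBS or TD139; each point is a library, each black bar a group mean and the open square marks WT PBS replicate 1. For Lama2, Arrdc2 and Chac1 the dyW TD139 libraries sit below all WT PBS libraries, and for the other 5 genes above them.

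Of the lists, macrophage genes held the most called members. Of 32 macrophage genes tested, 20 were higher and none lower (62.5%), with a median log2 fold change of 1.72. Without WT PBS replicate 1 the count was again 20 and the median 1.48. Mpeg1, a pore-forming protein of phagocytes, was at 6.19, 6.29 and 7.39 RPKM in dyW TD139 and at 0.392, 0.217 and 0.358 RPKM in WT PBS, the smallest adjusted p of the list (log2 fold change 4.12, SE 0.29, adjusted p = 0.000349). Ctss, a lysosomal protease of antigen-presenting cells, was at 23.4, 23.4 and 33.4 RPKM against 3.29, 3.39 and 3.46, and both groups were tight (log2 fold change 2.72, SE 0.23, adjusted p = 0.000487). Adgre1, which encodes the F4/80 antigen, was at 4.16, 4.50 and 4.89 RPKM against 0.676, 0.486 and 0.783 (log2 fold change 2.55, SE 0.32, adjusted p = 0.00352). Ms4a7, a membrane protein of macrophages, gave 3.02 (SE 0.30, adjusted p = 0.00109). The calls of all 4 held. Among the others called were Trem2 (3.61), a lipid receptor, Cx3cr1 (3.24) and Ccr2 (2.44), chemokine receptors of monocytes, and Csf1r (1.00), the receptor for the macrophage growth factor. The summed level of the 32 genes ran from 247 to 320 RPKM in dyW TD139, from 74.4 to 82.2 RPKM in WT PBS and from 193 to 447 RPKM in dyW PBS. In bulk tissue, more cells of a type and more RNA per cell cannot be told apart.

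Some genes of antigen presentation, complement, chemokine signalling and innate sensing were higher too, while most members of these lists were not called. Of 14 genes of MHC class II presentation, which shows peptides to T cells, 4 were higher: H2-Aa and H2-Ab1, which held, and Cd74 and H2-Eb1 (highest 0.0781 and 0.0825). H2-Aa was at 15.3, 20 and 15.6 RPKM against 3.16, 3.66 and 2.96 (log2 fold change 2.13, SE 0.24, adjusted p = 0.00242), without overlap. Of 21 complement genes, 4 were higher, among them C3ar1, the receptor for the C3a fragment, with 2.69 (SE 0.33, adjusted p = 0.00333), which held, and C1qa, a subunit that starts the classical pathway, with 1.47 (SE 0.29, adjusted p = 0.0267, highest 0.0928). Without WT PBS replicate 1 the complement count was 7. Of 21 chemokine and receptor genes, 6 were higher. Cxcl16, a membrane-bound chemokine, was at 3.19, 3.04 and 3.27 RPKM against 0.951, 0.921 and 0.581 (log2 fold change 1.71, SE 0.25, adjusted p = 0.00654), without overlap, and held. Ccl2 (3.32), which draws monocytes, was also called. In the fit without WT PBS replicate 1, 5 genes of the chemokine list were called; Ccl2 and Ccr1, a receptor of inflammatory chemokines, were then at adjusted p = 0.0552 and 0.0548.

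Of 27 inflammasome, toll-like receptor and NF-kB genes, 4 were higher: Tlr13, Tlr7 and Tlr8, receptors for RNA inside endosomes (highest 0.0781 for Tlr7 and 0.185 for Tlr8), and Il1rn, the natural antagonist of interleukin-1 signalling. Tlr13 was at 0.500, 0.538 and 0.436 RPKM against 0.0515, 0.0486 and 0.0188 (log2 fold change 3.37, SE 0.44, adjusted p = 0.00352) and held. Il1rn had 20, 37 and 133 reads in dyW TD139 and 0, 1 and 1 reads in WT PBS. Scaled to depth, that is a ratio of 92.9, with an exact 95% counting interval from 25.4 to 772 that does not cover variation between mice; its highest adjusted p was 0.259. Without WT PBS replicate 1, 7 genes of this list were called. Of 34 interferon response genes, 1 was higher, Ifi27l2a, at 15.9, 45.6 and 25.6 RPKM against 6.15, 6.25 and 6.59 (1.94, SE 0.36, adjusted p = 0.0231, highest 0.0793). That is a share near the 2.04% of all genes called higher. The median of the list was 0.47, beside 0.0029 over all genes.

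Of the markers of other leukocytes, few were called. Of 12 neutrophil markers, 3 were tested and Csf3r, the receptor for granulocyte growth factor, was higher (2.85, SE 0.51, adjusted p = 0.0148, highest 0.146). The neutrophil list summed to 0.667 to 2.39 RPKM in dyW TD139, with 1 to 6 markers at 0. In WT PBS its sum was 0.227 to 0.296 RPKM, with 6 to 9 markers at 0. None of 9 T, B and NK cell markers and none of 8 mast cell markers was called. Of the 9 T, B and NK cell markers, 7 had a log2 fold change above 0. The median over the 9 was 0.39, and it was 0.65 without WT PBS replicate 1. Ighm, the heavy chain of immunoglobulin M, went the other way. It was lower without WT PBS replicate 1 (−2.72, adjusted p = 0.00745, against −2.26 and 0.0792 with it). The T, B and NK list summed to 5.49, 8.04 and 6.70 RPKM in dyW TD139, with at most 1 of 15 markers at 0, and to 6.79, 26.3 and 23.9 RPKM in WT PBS replicates 1, 2 and 3, with 2 to 6 at 0. Mast cell markers summed to 12.8 to 17.5 RPKM in dyW TD139, and their sum was 9.75 to 13.8 RPKM in WT PBS. Cd28, a costimulatory receptor of T cells, which is in none of the lists, was lower, at 0.366, 0.679 and 0.559 RPKM against 0.883, 2.45 and 3.30 (log2 fold change −2.35, SE 0.45, adjusted p = 0.0267, highest 0.108).

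Genes of immature and regenerating fibres were the next group. Of 26 tested, 10 were higher and none lower, with a median of 0.96; without WT PBS replicate 1, 12 were higher and 2 lower. Myl4, the embryonic myosin light chain, was at 20.8, 16.7 and 16.1 RPKM against 2.58, 1.64 and 0.982 (log2 fold change 3.15, SE 0.26, adjusted p = 0.000442). Myh8, the perinatal myosin heavy chain, was at 27.2, 18.4 and 18.4 RPKM against 6.13, 1.66 and 1.97, with its highest WT level in replicate 1 (2.54, SE 0.40, adjusted p = 0.0122, highest 0.0622). Tnnt2, a cardiac troponin of developing fibres, gave 1.83 (SE 0.26, adjusted p = 0.00654), and Ankrd1, a stretch-responsive titin partner, 2.93 (SE 0.39, adjusted p = 0.00605). Myl4, Tnnt2 and Ankrd1 held. Sln (sarcolipin, a small inhibitor of the calcium pump) was at 269, 135 and 130 RPKM against 39.9, 4.08 and 2.86. Its log2 fold change was 3.40 (SE 0.68, adjusted p = 0.0354, highest 0.111) and 5.34 without WT PBS replicate 1. Of the 26, 22 had a log2 fold change above 0. Those below 0, and not called, were Mybph (−1.38), Actc1 (−1.74), Myl6b and Tnnc1. Without WT PBS replicate 1, Mybph (−1.7, adjusted p = 0.00418) and Actc1 (−2.14, adjusted p = 0.00927) were the 2 lower genes. Myl6b and Tnnc1 were then above 0. Myh3, also a myosin heavy chain gene, was not called (1.54, adjusted p = 0.47). It was higher without that library (4.83, adjusted p = 0.000388). None of 18 satellite cell genes and none of 30 proliferation genes was called, against 2.44% of all genes. Their medians were 0.07 and 0.19.

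Of 18 genes of denervated muscle and the junction, 4 were higher: Runx1, a transcription factor, Chrng and Chrnd, subunits of the acetylcholine receptor, and Ncam1, an adhesion molecule. That share, 22.2%, stood against 2.04% of all genes called higher. Chrng, Chrnd and Ncam1 also belong to the list of immature fibres. Chrng was at 1.08, 1.40 and 1.92 RPKM against 0.069, 0.190 and 0.275 (log2 fold change 2.74, SE 0.45, adjusted p = 0.0136, highest 0.0522), and Runx1 at 1.78, 1.35 and 1.90 RPKM against 0.360, 0.196 and 0.254 (2.41, SE 0.36, adjusted p = 0.00878), which held. Because receptor gamma subunit transcription is a textbook output of the myogenic factors, which bind E-boxes, the 250 bases before the RefSeq start of Chrng are shown (RefSeq, GRCm38.p6, chr1:87205561-87205810, plus strand, 5′ to 3′), with 2 matches to CAGCTG in capitals:
Chrng: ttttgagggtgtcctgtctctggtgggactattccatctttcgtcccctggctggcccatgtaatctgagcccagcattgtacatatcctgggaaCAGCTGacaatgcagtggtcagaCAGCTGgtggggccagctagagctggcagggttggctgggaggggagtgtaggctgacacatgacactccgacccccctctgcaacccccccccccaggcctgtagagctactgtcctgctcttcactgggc
CAGCTG reads the same on both strands, and 13.0% of 32851 promoters hold it in this window.

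Simple keratins were among the genes with the highest called fold changes. Krt8 and Krt18, the paired filament proteins of simple epithelia, lie near each other on chromosome 15 (101996711 to 102004342 and 102028216 to 102032026). Krt8 was at 3.83, 1.86 and 1.49 RPKM against 0.0868, 0.0243 and 0.0704; the WT PBS values rest on 6, 2 and 5 reads (log2 fold change 5.07, SE 0.59, adjusted p = 0.00181). Krt18 was at 8.97, 3.58 and 2.87 RPKM against 0.410, 0.110 and 0.164 (4.30, SE 0.50, adjusted p = 0.00242). Both held. Nes (nestin), a filament of immature fibres, was at 24.9, 20.5 and 31.7 RPKM against 15.3, 8.92 and 9.25 (0.98, SE 0.20, adjusted p = 0.031, highest 0.129), which made 3 of 10 filament genes higher. The 3 keratinocyte markers tested were not called, and 5 to 6 of that list's 10 markers were at 0 in dyW TD139. Other genes with large increases were Aldh3a1 (4.69, SE 0.77, adjusted p = 0.00722), an aldehyde dehydrogenase with 6, 0 and 2 reads in WT PBS, and Rrad (3.73, SE 0.43, adjusted p = 0.00311), a small GTPase that limits calcium channels. Both held. Msln (3.49, SE 0.67, adjusted p = 0.0261, highest 0.108), a surface protein of mesothelium, was among them too.

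Metallothioneins Mt1 and Mt2, which bind zinc and copper, were higher. Mt2 (chromosome 8, 94172664 to 94173568) was at 97.2, 63.3 and 245 RPKM against 11.3, 5.37 and 5.75 (log2 fold change 3.94, SE 0.43, adjusted p = 0.0025) and held. Mt1 (chromosome 8, 94179082 to 94180327) was at 28.3, 25.1 and 70.3 RPKM against 8.66, 8.16 and 5.67 (2.20, SE 0.36, adjusted p = 0.0133), and lost the call without WT PBS replicate 3 (adjusted p = 0.0712). In both genes dyW TD139 replicate 3 was the highest library and the groups did not overlap. Metallothionein genes are the textbook targets of the metal-responsive factor MTF1, and the 250 bases before their RefSeq starts are shown because the pair moved together (RefSeq, GRCm38.p6, chr8:94178839-94179088 and chr8:94172368-94172617, plus strand, 5′ to 3′). Capitals mark matches to TGCACNC or TGCGCNC, the core of the metal response element, on either strand:
Mt1: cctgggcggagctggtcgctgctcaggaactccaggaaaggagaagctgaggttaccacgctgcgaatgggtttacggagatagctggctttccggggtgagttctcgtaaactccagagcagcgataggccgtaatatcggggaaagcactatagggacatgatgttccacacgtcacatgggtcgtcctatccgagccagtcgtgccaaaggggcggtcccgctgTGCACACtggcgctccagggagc
Mt2: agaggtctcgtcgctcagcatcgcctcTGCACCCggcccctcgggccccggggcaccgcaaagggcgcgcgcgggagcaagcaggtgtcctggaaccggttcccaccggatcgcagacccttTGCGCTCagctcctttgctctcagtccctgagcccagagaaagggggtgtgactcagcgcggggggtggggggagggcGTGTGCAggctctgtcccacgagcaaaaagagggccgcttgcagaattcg
Mt1 holds 1 match and Mt2 holds 3, and 21.4% of 32851 promoters hold at least 1 in this window. The counts depend on the start used for each gene. Sequence after that start was not searched, so they are not the number of elements of either gene.

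Growth-arrest and survival genes were partly higher. Of 25 apoptosis and p53 target genes, 4 were higher. Cdkn1a, which encodes the cell cycle inhibitor p21, was at 40.4, 27.1 and 33.9 RPKM against 20.2, 7.94 and 10.6 (log2 fold change 1.18, SE 0.26, adjusted p = 0.0374, highest 0.144). Eda2r, a death-domain receptor, gave 1.72 (SE 0.37, adjusted p = 0.0399, highest 0.144). Pmaip1 (Noxa, which promotes cell death) had 113 reads in all in dyW TD139 and 5 in WT PBS (4.11, SE 0.72, adjusted p = 0.00883, highest 0.0762). Bcl2a1b, a BCL2-related survival gene of leukocytes that has near-identical copies, gave 3.60 (SE 0.70, adjusted p = 0.0232, highest 0.0913), so its reads may be shared with those copies.

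Matrix genes were higher in part. Of 48 fibrillar matrix genes, 7 were higher and none lower (14.6%, against 2.04% of all genes called higher), with a median of 0.51. Without WT PBS replicate 1 there were 11, against 4.33% of all genes. Postn (periostin, a matrix protein of fibrosis) was at 52.1, 61.2 and 60.2 RPKM against 11.1, 9.01 and 11.7 (log2 fold change 2.20, SE 0.36, adjusted p = 0.0136, and 0.0625 without WT PBS replicate 2). Lum (lumican), a collagen-binding proteoglycan, was at 82.8, 80.8 and 64.7 RPKM against 22.4, 26.1 and 27.8 (1.32, SE 0.23, adjusted p = 0.016, highest 0.0685). Timp1 (2.20), an inhibitor of matrix proteases, Loxl1 (1.10), a collagen and elastin crosslinking enzyme, and Mfap5, Mfap4 and Mmp14 were the others. The log2 fold change was above 0 in 40 of the 48. Among those below 0, and not called, were the type I collagen genes Col1a1 (−0.95) and Col1a2 (−0.82), and Fmod (−2.26). None of 23 TGF-beta pathway genes and none of 18 fibroblast and progenitor genes was called, against 2.44% of all genes. Their medians were 0.27 and 0.38. The members of the progenitor list summed to 492 to 552 RPKM in dyW TD139, and their sum was 352 to 371 RPKM in WT PBS.

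**Figure D3:**
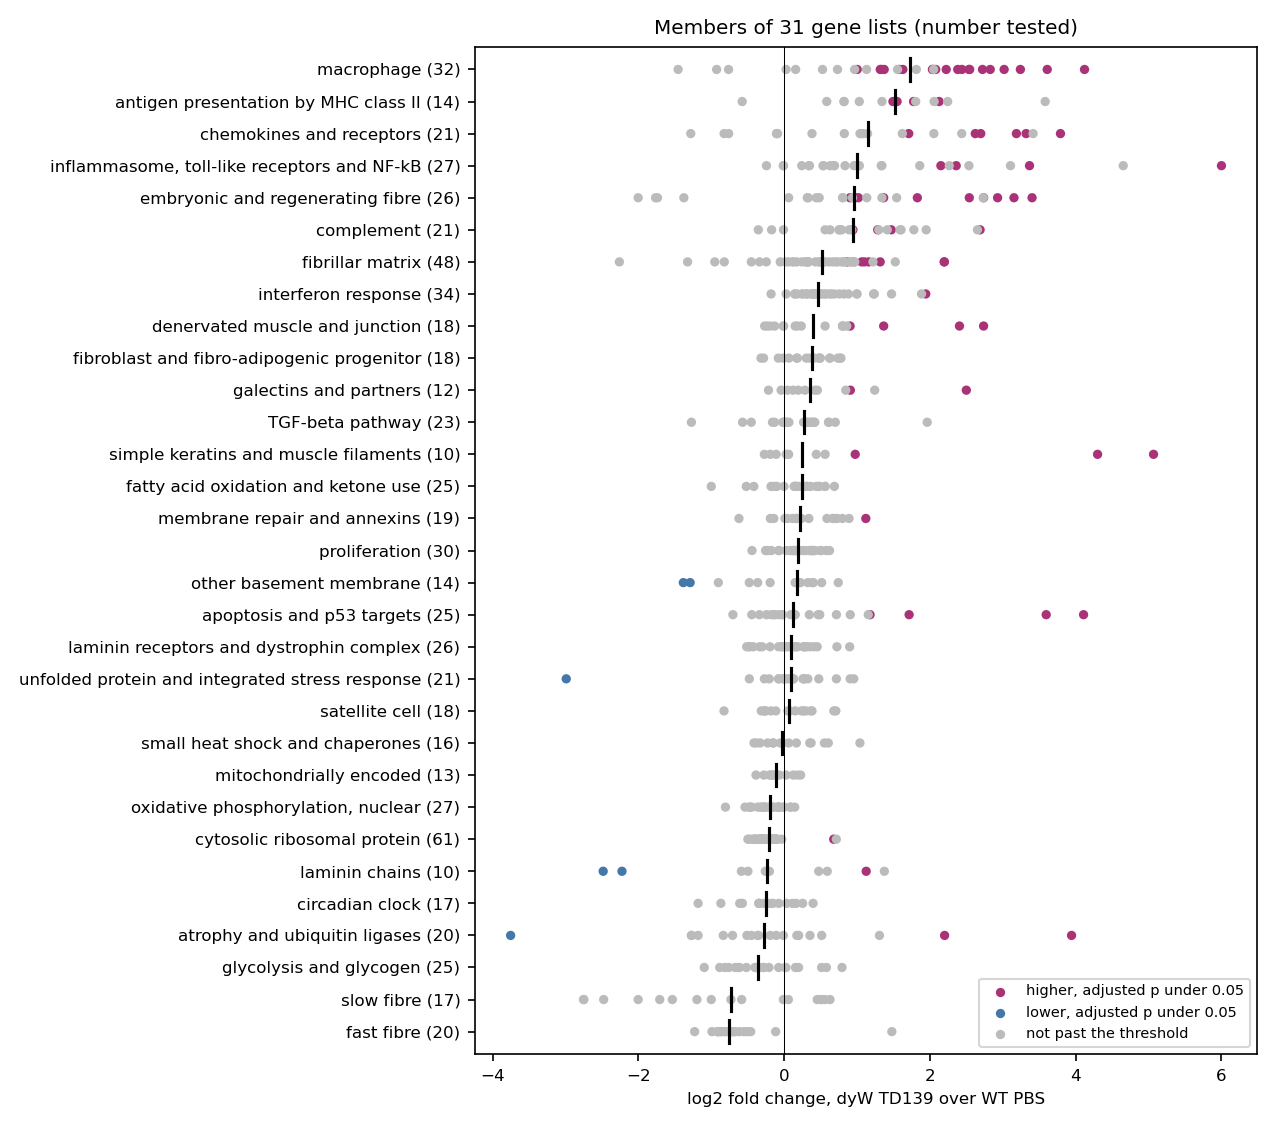
Log2 fold change of dyW TD139 over WT PBS (horizontal axis) for each tested member of 31 gene lists (rows, number tested in brackets, sorted by median); coloured points have an edgeR adjusted p under 0.05 and black ticks are medians. Medians run from 1.72 for macrophage genes to −0.76 for fast-fibre genes, a list in which no member was called.

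Arrdc2 and Chac1 were lower than in WT PBS and also had lower values than in dyW PBS. Arrdc2 (chromosome 8, 70835129 to 70839720), an arrestin-domain adaptor that rises in muscle with glucocorticoids, was at 2.18, 2.12 and 1.44 RPKM in dyW TD139 and at 16.6, 18.3 and 29.2 RPKM in WT PBS. It did not overlap between the groups, a condition for naming genes by the size of their change. Its log2 fold change was −3.75 (SE 0.36, adjusted p = 0.00123), which held. In dyW PBS it was at 5.87, 8.20 and 13.0 RPKM and in WT TD139 at 5.53 and 9.11 RPKM, so that the dyW TD139 libraries were the lowest of the 11. The direct difference of dyW TD139 from dyW PBS was −2.22 (95% interval −3.01 to −1.43, unadjusted p = 7.7e-05), and failed the correction over all genes (adjusted p = 0.888). DESeq2 called it (adjusted p = 1.81e-05).

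Chac1 (chromosome 2, 119351229 to 119354381), a glutathione-degrading enzyme induced by the integrated stress response, was at 1.67, 1.39 and 0.707 RPKM against 6.37, 4.95 and 13.6 (log2 fold change −2.99, SE 0.43, adjusted p = 0.00836), and held. In dyW PBS it was at 3.07, 3.76 and 4.90 RPKM, above each dyW TD139 library; the direct difference was −1.61 (95% interval −2.57 to −0.65, adjusted p = 0.888). It was the single gene called of 21 in the unfolded protein and integrated stress list, whose median was 0.09. As ATF4 and CHOP act on Chac1 through C/EBP-ATF elements, the 250 bases before its start are shown (RefSeq, GRCm38.p6, chr2:119350992-119351241, plus strand, 5′ to 3′), with the match to TGATGNAA on either strand in capitals:
Chac1: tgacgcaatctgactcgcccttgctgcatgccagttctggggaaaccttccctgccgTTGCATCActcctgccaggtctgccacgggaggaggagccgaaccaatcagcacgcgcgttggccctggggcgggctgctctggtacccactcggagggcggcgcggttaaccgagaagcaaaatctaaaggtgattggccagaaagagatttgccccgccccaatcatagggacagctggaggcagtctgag
The element is found in 3.45% of 32851 promoters in this window. Of 20 atrophy genes, Mt2 and Mt1 were higher and Arrdc2 was lower; the ubiquitin ligases of the list were not called.

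Among the genes named, the cartilage genes Chad and Col2a1 had the largest decreases. Chad (chondroadherin) was at 1.76, 0.269 and 1.36 RPKM against 48.5, 18.8 and 4.33 (log2 fold change −4.56, SE 0.84, adjusted p = 0.0304, highest 0.115). Col2a1, the cartilage collagen, was at 0.198, 0.0911 and 0.319 RPKM against 2.26, 5.95 and 1.20 (−4.23, SE 0.72, adjusted p = 0.0197, highest 0.0838), and Col11a2, its partner, at 1.76, 1.05 and 2.16 RPKM against 12, 8.33 and 4.62 (−2.55, SE 0.44, adjusted p = 0.0189, highest 0.0776). None of these overlapped between the groups, which was a condition for naming genes by the size of their change. In WT TD139 the values were low as well, at 0.620 and 2.20 RPKM for Chad and 0.375 and 0.545 for Col2a1, and in dyW PBS Chad was at 7.58, 11.2 and 1.66. The tendon and cartilage markers, of which 2 of 13 were called lower and none was at 0 in any of the 6 libraries, had a relative log2 level of −1.32 to −0.22 in the dyW TD139 libraries; in the WT PBS libraries it was 0.16 to 1.49. Their summed RPKM had another order, at 384, 237 and 336 in dyW TD139 against 361, 209 and 162 in WT PBS. The log2 fold change was above 0 in 3 of the 13, and Cilp, a cartilage matrix protein, was higher without WT PBS replicate 1 (2.05, adjusted p = 0.00564). The part of neighbouring tissue in these values was not tested. Other genes that fell were Vit (−2.35, SE 0.49, adjusted p = 0.0354, highest 0.16), a matrix protein, Slc25a25 (−2.10, SE 0.46, adjusted p = 0.0412, highest 0.143), a mitochondrial ATP-magnesium carrier, and Nr4a2 (−2.08, SE 0.44, adjusted p = 0.0367, highest 0.141), an orphan nuclear receptor. The RPKM values of Nr4a2 overlapped, with 0.884 in dyW TD139 replicate 3 and 0.695 in WT PBS replicate 3.

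Fibre type results turned on WT PBS replicate 1. With all libraries, none of 20 fast-fibre and none of 17 slow-fibre genes was called, and the medians were −0.76 and −0.73. Without that library, 14 fast-fibre genes were lower and 2 higher (median −1.01), and 12 slow-fibre genes were higher and none lower (median 1.84). In that fit, 4.33% of all genes were called higher and 2.44% lower. The 2 higher fast-fibre genes were the myosin heavy chain genes Myh1 (2.22, adjusted p = 0.0155) and Myh2 (3.38, adjusted p = 0.0072). With all libraries they were at 1.48 and −0.12. Myh4, also a myosin heavy chain gene, was among the lower ones (−0.91, adjusted p = 0.039). Pvalb, the calcium buffer of fast fibres, was at 8360, 7314 and 8024 RPKM in dyW TD139 and at 6713, 20460 and 17870 RPKM in WT PBS. Its log2 fold change went from −1.23 (adjusted p = 0.129) to −1.62 (adjusted p = 0.0033). Myl2, the slow myosin light chain, was at 10.5, 23.2 and 39.9 RPKM against 386, 0.449 and 0.130, and went from −2.48 (adjusted p = 0.521) to 6.01 (adjusted p = 0.0025). Myl3 went from −2.75 to 4.50 and Tpm3, the slow tropomyosin, from −1.20 to 1.44. The relative log2 level of the slow list was 0.67 to 1.46 in dyW TD139, 3.18 in WT PBS replicate 1, and −1.40 and −1.88 in the other WT PBS libraries. In dyW PBS it was −0.17 to −0.04. Schwann cell and nerve markers were 2.00 in the same WT library, against −0.08 and −0.49 in the others and −0.64 to −0.12 in dyW TD139. None of the 13 was called. What gave this library its slow-fibre and nerve levels was not tested.

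**Figure D4:**
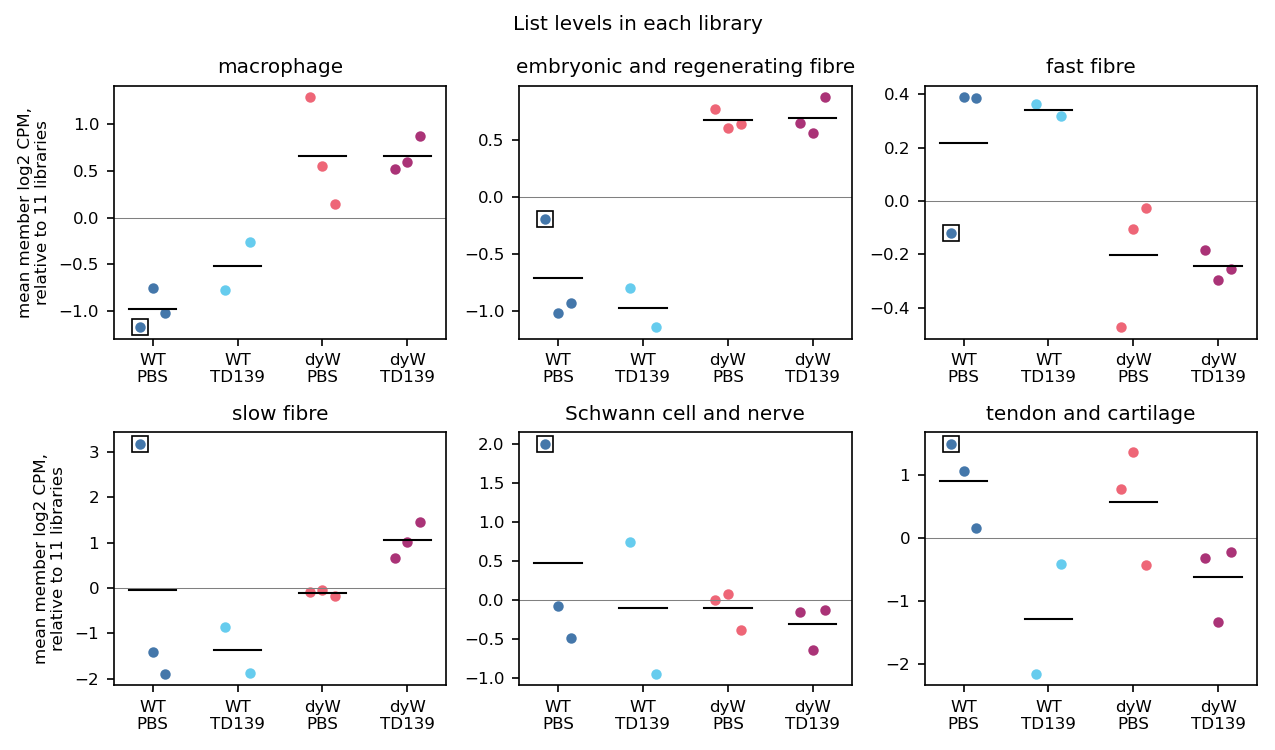
Mean log2 CPM (reads scaled to library depth) of the members of 6 lists relative to the mean of the 11 libraries (vertical axis), by group; each point is a library, black bars are group means and the open square marks WT PBS replicate 1. That library is at 3.18 for slow-fibre and 2.00 for nerve genes, above all others, while macrophage levels separate the dyW TD139 libraries (0.52 to 0.87) from WT PBS (−1.17 to −0.75).

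Few genes of the metabolic and housekeeping lists were called with all libraries. None of 25 glycolysis and glycogen genes was called (median −0.35), and without WT PBS replicate 1, 7 were lower, among them Pgam2 (−1.42, adjusted p = 0.0058) and Aldoa (−1.14, adjusted p = 0.0056), and 1 was higher, against 2.44% of all genes lower in that fit. None of 27 nuclear oxidative phosphorylation genes (median −0.19), 13 mitochondrially encoded genes (−0.12) or 25 fatty acid oxidation genes (0.25) was called. The fatty acid median was 0.63 without WT PBS replicate 1, where 1 gene, Lpl (lipoprotein lipase), was higher. None of 16 heat shock genes (−0.03) or 17 clock genes (−0.24) was called either. Of 61 cytosolic ribosomal protein genes, Rpl3 was higher (0.68, SE 0.15, adjusted p = 0.043, highest 0.168), while the median was −0.20. The medians of the oxidative, mitochondrial, heat shock, ribosomal and clock lists, and of the laminin and atrophy lists above, were above 0 under at least 1 alternative. Of 19 membrane repair genes, Anxa4, an annexin, was higher (1.12, SE 0.23, adjusted p = 0.0311, highest 0.123). None of 12 endothelial, 11 smooth muscle, 14 adipocyte and 7 red blood cell markers was called. The adipocyte median was 0.94, with 12 of the 14 above 0. Without WT PBS replicate 1 it was 2.07, and Cebpa was called higher (1.75, adjusted p = 0.047). Adipocyte levels varied widely in dyW TD139, from −0.51 in replicate 1 to 2.01 in replicate 2. In WT PBS replicates 1, 2 and 3 they were 0.38, −1.17 and −1.01. Ucp1, the uncoupling protein of brown fat, had 5, 1822 and 481 reads in dyW TD139 and 0, 21 and 5 in WT PBS.

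Most genes called under TD139 were also called in untreated dyW mice, which share no library with this comparison. In the untreated cohort 24.7% of 14846 genes were called higher and 25.1% lower, or 49.8% in all. Of the 312 genes higher in dyW TD139, 311 were tested there, 280 were called higher in untreated dyW, none lower, and 31 were not called. Of the 62 lower genes, 61 were tested, 52 were called lower, none higher and 9 were not called. With WT PBS replicate 1 left out, 519 of 658 higher genes were called the same way in untreated dyW, 9 the opposite way and 130 not (78.9%, against 90.0% with it). Of 369 lower genes, 266 were called the same way, 2 the opposite way and 101 not. The cohorts differ in age label as well as in treatment.

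Read the other way, most of the untreated profile was not past the threshold. The profile held the genes past adjusted p under 0.05 and a fold change of 2-fold or more in untreated dyW, 2117 higher and 1368 lower. Of the higher genes, 2053 were tested here and 254 were called higher (12.4%, against 2.04% of all genes), none lower, with a median log2 fold change of 0.50 against 1.59 in the untreated mice. Of the lower genes, 1362 were tested and 39 were called lower (2.86%, against 0.404% of all genes), none higher, with a median of −0.14 against −1.38. The median of the lower genes was 0.11 with limma on log2(RPKM + 0.1). Without WT PBS replicate 1, 420 of the higher profile genes were called higher and 155 of the lower ones lower. The 95% interval of the log2 fold change lay within −1 to 1 in 503 higher genes (24.5%) and 712 lower genes (52.3%), against 61.8% of all genes tested. In dyW PBS against the same WT PBS libraries, 320 higher and 37 lower profile genes were called, with medians of 0.67 and −0.39. These values share their controls with those of dyW TD139. The profile genes were chosen for their size in the untreated mice, so the untreated medians could not lie within −1 to 1. Part of the gap to the medians here is therefore built in. The difference between the cohorts was not tested.

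**Figure D5:**
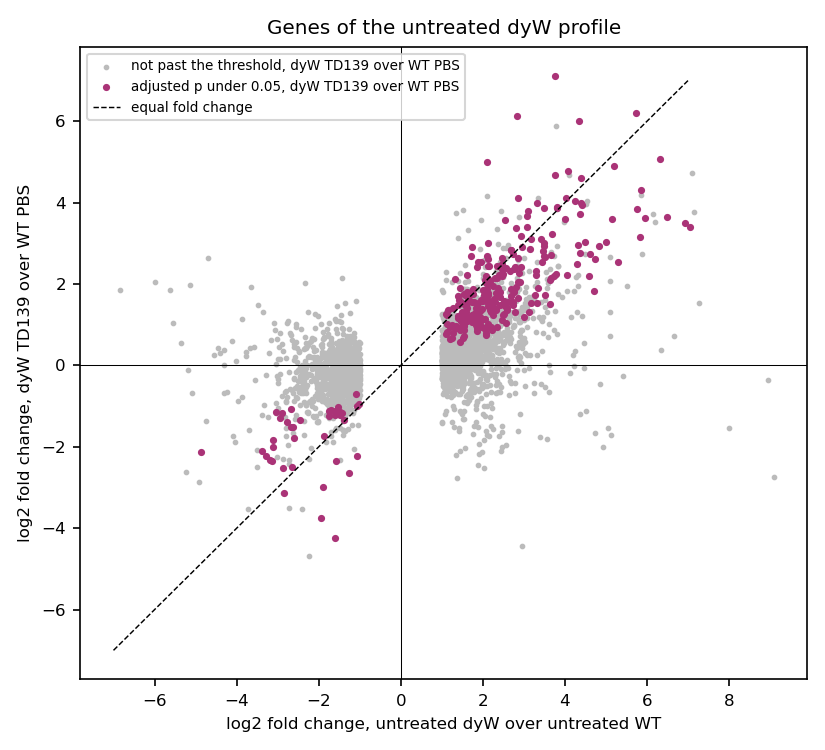
Log2 fold change of untreated dyW over untreated WT (horizontal axis) and of dyW TD139 over WT PBS (vertical axis) for 3415 profile genes tested in both; each point is a gene, coloured where the second comparison had an adjusted p under 0.05, and the dashed line marks equal fold changes. The 293 coloured genes lie in the same-sign quadrants. The grey genes are by definition those that missed the threshold on the vertical axis. All genes were chosen for an untreated fold change of 2-fold or more.

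Profile genes were named by rule from 2 classes, those called here and those with a 95% interval within −1 to 1. In each class the largest untreated changes were taken, so smaller values here are in part built in. Among the 5 called genes with the largest untreated increase, Cldn2, a claudin of tight junctions, was 3.65 (SE 0.57, adjusted p = 0.00774, held) here and 6.5 untreated, and Sln was 3.40 and 7.04. Among those with the largest untreated decrease, Cdh4, a classical cadherin, was at 0.209, 0.190 and 0.163 RPKM against 0.759, 0.685 and 0.638, or −2.13 (SE 0.26, adjusted p = 0.00309, held) here and −4.86 untreated. Genes with a 95% interval within −1 to 1 included Eln (elastin), at 36.8, 38.1 and 49.8 RPKM in dyW TD139 and 48.4, 19.5 and 19 in WT PBS. Its log2 fold change was 0.32 here, 0.77 without WT PBS replicate 1 (adjusted p = 0.045) and 2.80 untreated. Fkbp11, a prolyl isomerase of the secretory pathway, was 0.33 here and 2.50 untreated, and Pln (phospholamban) −0.01 and 2.37. On the lower side were Dnajb1, a heat-inducible chaperone partner, with 0.37 here and −4.31 untreated, and Kcng4, a potassium channel subunit. Kcng4 was at 2.92, 3.04 and 3.85 RPKM in dyW TD139, 2.14, 2.98 and 2.85 in WT PBS and 1.70, 2.05 and 1.55 in dyW PBS. Its direct difference from dyW PBS was 0.92 (95% interval 0.46 to 1.38, unadjusted p = 0.00101, adjusted p = 0.888).

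Each library was also given a score for the whole profile. The score of a library, the mean log2 CPM of the higher genes minus that of the lower genes, was −2.19, −2.23 and −1.68 in dyW TD139 (−2.03 ± 0.31, SD, n = 3). It was −2.67, −2.77 and −3.30 in WT PBS (−2.91 ± 0.34, n = 3), so the groups did not overlap. The difference of the means was 0.88. An exact two-sided permutation test gave p = 0.1, the smallest value that 3 against 3 libraries allow. In dyW PBS the scores were −1.21, −1.68 and −2.07, which overlapped those of dyW TD139 (p = 0.2 by the same permutation test). In WT TD139 they were −2.71 and −3.47.

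The direct contrast of dyW TD139 with dyW PBS called no gene with edgeR (583 genes at unadjusted p under 0.05, smallest adjusted p 0.888). DESeq2 called Arrdc2 lower and Kbtbd13, a muscle adaptor of a ubiquitin ligase, higher; Kbtbd13 is named after its values were seen. It was at 5.27, 5.03 and 4.58 RPKM in dyW TD139 and 2.20, 2.69 and 2.60 in dyW PBS, but at 5.65, 3.41 and 2.89 in WT PBS. WT TD139 against WT PBS also called no gene with edgeR (304 at unadjusted p under 0.05, smallest adjusted p 1), and DESeq2 called Socs2 and Ikzf4 higher and Myh7 lower, named after their values were seen. The Myh7 call rests on WT PBS replicate 1: the gene was at 0.0734 and 0.0361 RPKM in WT TD139, near the 0.0638 and 0.0207 RPKM of the other WT PBS libraries. Against the same WT PBS libraries, dyW PBS had 368 genes higher (2.4%) and 43 lower (0.28%), or 2.68% in all. For Mpeg1 the log2 fold change was 3.88 in dyW PBS beside 4.12 in dyW TD139, for Krt8 5.18 beside 5.07, for Myl4 3.46 beside 3.15 and for Postn 2.13 beside 2.20. For H2-Ab1 it was 2.29 beside 1.78, with a direct difference of −0.51 (95% interval −1.04 to 0.01), for Arrdc2 −1.53 beside −3.75 and for Chac1 −1.38 beside −2.99.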

How the data were processed

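RNA was extracted with TRIzol and 1 ug entered a stranded mRNA preparation, read on a NextSeq 2000 as 58 bp pairs, per the labels' protocols. The build is mm10, per the submitters' processing notes; the aligner and counter are not given in the sources used here. The authors deposited total and unique exon reads per gene as counts, and RPKM. Reads were tested with edgeR 4.0.16 (R 4.3.3; TMM, filterByExpr with minimum count 10 and minimum total count 15, quasi-likelihood F-test, Benjamini-Hochberg) in 1 fit of the 11 treatment-cohort libraries, whose 4 groups share the spread; the untreated cohort was fitted alone. RPKM levels are the deposited ones and lack composition scaling. Every adjusted p is edgeR's unless another tool is named. Of 816 list symbols 813 matched the files. Named genes were Lama2, Lama1, Lgals3, up to 10 per direction by fold change (called, at least 1 RPKM, no overlap on log2 CPM, no provisional symbols), up to 4 per list by p and up to 5 per class of profile genes; other list members are given by fold change. The members, lists and rules were chosen with earlier results of these data known. Nothing in the labels gives litters or cages, and p-values measure the spread between these mice. Alternatives were DESeq2 1.42.0, limma 3.58.1 on RPKM, RLE, other filters, unique reads, a sex term, the 6 libraries alone and each library left out. The edgeR step was tested on simulated data. Python 3.11.15 and matplotlib 3.10.9 drew the figures. The authors' own comparison tables were not used.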

Additional observations from a re-analysis of the deposited data

How the results depend on the processing

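No paired analysis was possible because the labels give each mouse its own number and no number is shared between groups. Leaving out 1 library at a time gave 76 to 661 genes higher and 9 to 372 lower in dyW TD139 against WT PBS, and 71 to 420 higher and 9 to 155 lower profile genes called the same way. For dyW PBS the range over the WT PBS libraries was 113 to 465 higher and 8 to 136 lower. With DESeq2 the counts were 598 higher and 262 lower for dyW TD139, 673 and 167 for dyW PBS, 1 and 1 for dyW TD139 against dyW PBS, 2 and 1 for WT TD139 against WT PBS, and 440 and 134 for the profile genes. With no filter beyond 1 read, 114 genes were lower in dyW TD139, 73 in dyW PBS and 69 among the lower profile genes. With limma on log2(RPKM + 0.1) and log2(RPKM + 1), 24 and 19 genes were lower in dyW TD139. For dyW PBS limma gave 819 and 795 higher and 17 and 15 lower, and 17 and 16 lower profile genes were called. Higher genes made up 94.9% of the limma calls, 69.5% of the DESeq2 calls and 83.4% with edgeR. A profile with an untreated log2 fold change of at least 2 gave 161 of 627 higher and 19 of 255 lower genes called. Without WT PBS replicate 1 the log2 fold changes of Myl2, Myl3 and Tpm3 reversed; over the libraries left out they ran from −3.06 to 6.01, from −3.44 to 4.50 and from −1.71 to 1.44. Of the 68 called genes that the naming rule chose, 42 lost the call in at least 1 alternative. The cause of these changes was not tested. With 3 mice a group, a test that misses the threshold does not show that a gene is at the WT level. Counting error limits genes with under about 30 reads in a group.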
